A study of Homo sapiens with 16 samples.

Results

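The keratins of this report were the basal keratins KRT5, KRT14 and KRT15, the stress keratins KRT6A, KRT6B, KRT16 and KRT17, and the simple epithelial keratins KRT8, KRT18 and KRT19. They were chosen by symbol, with earlier results of these data known. All 10 were present among the 26229 genes of the deposited count table and passed the filter that left 14673 genes for testing. RNA-seq was performed on A431, an established human epidermoid carcinoma line, and HaCaT, an established line of spontaneously immortalised human keratinocytes. Each line was transfected with a control siRNA (siCTRL, 1 library) or siRNA against YAP (siYAP, 3 libraries), or expressed an empty vector (1 library) or YAP5SA (3 libraries), an activated YAP in which the serines phosphorylated by the LATS kinases are replaced by alanines. The siRNAs were given in 2 rounds, 24 h apart, and RNA was taken 48 h after the later round. Every group was grown in the same serum-containing medium, and the time after vector delivery is not given in the sources used here. The methods call the triplicates biological, but the labels give replicate numbers only, so the p-values measure the spread between these libraries, which may be partly technical. Each line stands for a single established culture and not for skin, and each control was 1 library, so that its own spread is unknown.

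Keratins are the intermediate filament proteins of epithelial cells, and a filament is built from pairs of 1 type I and 1 type II keratin. In stratified epithelium the basal layer makes KRT5 with KRT14, and KRT15 marks a subset of basal cells. KRT6A, KRT6B, KRT16 and KRT17 are induced by wounding and in hyperproliferative epidermis, whereas KRT8, KRT18 and KRT19 are typical of simple epithelia and of many carcinomas. YAP is a transcriptional co-activator that binds DNA through TEAD factors.

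KRT5, KRT6A, KRT6B, KRT8 and KRT18 lie on chromosome 12, where KRT8 and KRT18 are next to each other, and the other keratins lie on chromosome 17, where KRT14, KRT16 and KRT17 are in a row. RefSeq promoter windows, 250 bases before to 50 after a gene's start, were at hand for KRT5 and KRT8. They are shown because only these 2 of the 10 keratins had a window. In HaCaT cells given YAP5SA KRT8 rose. KRT5, a type II keratin of the same cluster, was lower in each library without passing the edgeR quasi-likelihood test (adjusted p = 0.168). In A431 cells given YAP5SA neither passed it. Capitals mark a match to the TEAD motif GGAATG, and both genes are on the minus strand of GRCh38.p14, at chr12:52520345-52520644 for KRT5 and chr12:52926420-52926719 for KRT8.
KRT5: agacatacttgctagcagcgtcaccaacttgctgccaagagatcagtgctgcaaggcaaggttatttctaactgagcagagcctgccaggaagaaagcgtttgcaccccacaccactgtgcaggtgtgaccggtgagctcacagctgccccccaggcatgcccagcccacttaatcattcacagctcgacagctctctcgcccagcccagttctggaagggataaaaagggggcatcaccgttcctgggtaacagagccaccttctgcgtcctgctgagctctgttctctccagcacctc
KRT8: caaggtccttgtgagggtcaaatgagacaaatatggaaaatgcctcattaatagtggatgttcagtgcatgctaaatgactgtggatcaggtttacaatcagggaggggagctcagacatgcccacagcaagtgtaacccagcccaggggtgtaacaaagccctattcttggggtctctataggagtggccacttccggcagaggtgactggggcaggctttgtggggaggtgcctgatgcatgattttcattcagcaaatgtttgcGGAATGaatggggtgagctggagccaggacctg
The KRT8 window held 1 match to GGAATG, whose first base was 18 bases after the start, and the KRT5 window held none, searching both strands. Among 35116 promoter windows of this length 14.03% held a match. Neither window held the AP-1 motif TGANTCA (7.71% of all windows), the SP1 motif GGGCGG (44.95%), the AP-2 motif GCCNNNGGC (23.2%) or TATAAA (11.53%). A match is a run of letters and was not tested as a binding site or for a part in any change of level. The KRT8 window belongs to only one of that gene's starts.

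Libraries held 18115624 to 46791673 assigned read pairs, with a median of 26622174. YAP1, the target of the siRNA, fell in both lines (adjusted p = 0.000761 and 0.000894), to 5.04 to 6.995 CPM (counts relative to the library total) from 94.2 in A431 cells and to 21.6 to 23.2 CPM from 254.2 in HaCaT cells. With YAP5SA it stood at 1494 to 3244 CPM against 124.2 in A431 cells and at 7546 to 22243 CPM against 422.7 in HaCaT cells. The A431 difference, 4.36 on the log2 scale, did not pass the threshold (adjusted p = 0.197, edgeR quasi-likelihood test with Benjamini-Hochberg adjustment). EGFR, which is amplified in A431 cells, ranged from 749.6 to 1357 CPM there and from 297.4 to 556.7 CPM in HaCaT cells. All 5 epithelial markers (CDH1, EPCAM, ESRP1, CLDN4 and ITGB4) exceeded 1 CPM in every library, and their sum was 1056 to 1622 CPM. Of these, CDH1 rose in HaCaT cells with siYAP (0.85 on the log2 scale, SE 0.18, adjusted p = 0.0156), and with YAP5SA CLDN4 rose (0.92, SE 0.18, adjusted p = 0.00875), ESRP1 fell (-0.47, SE 0.13, adjusted p = 0.0337) and ITGB4 rose, as given with the linkers. CPM here are scaled by TMM, a normalisation for library composition, and a gene was called when its adjusted p was below 0.05 and its mean log2 CPM above 1.

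**Figure D1:**
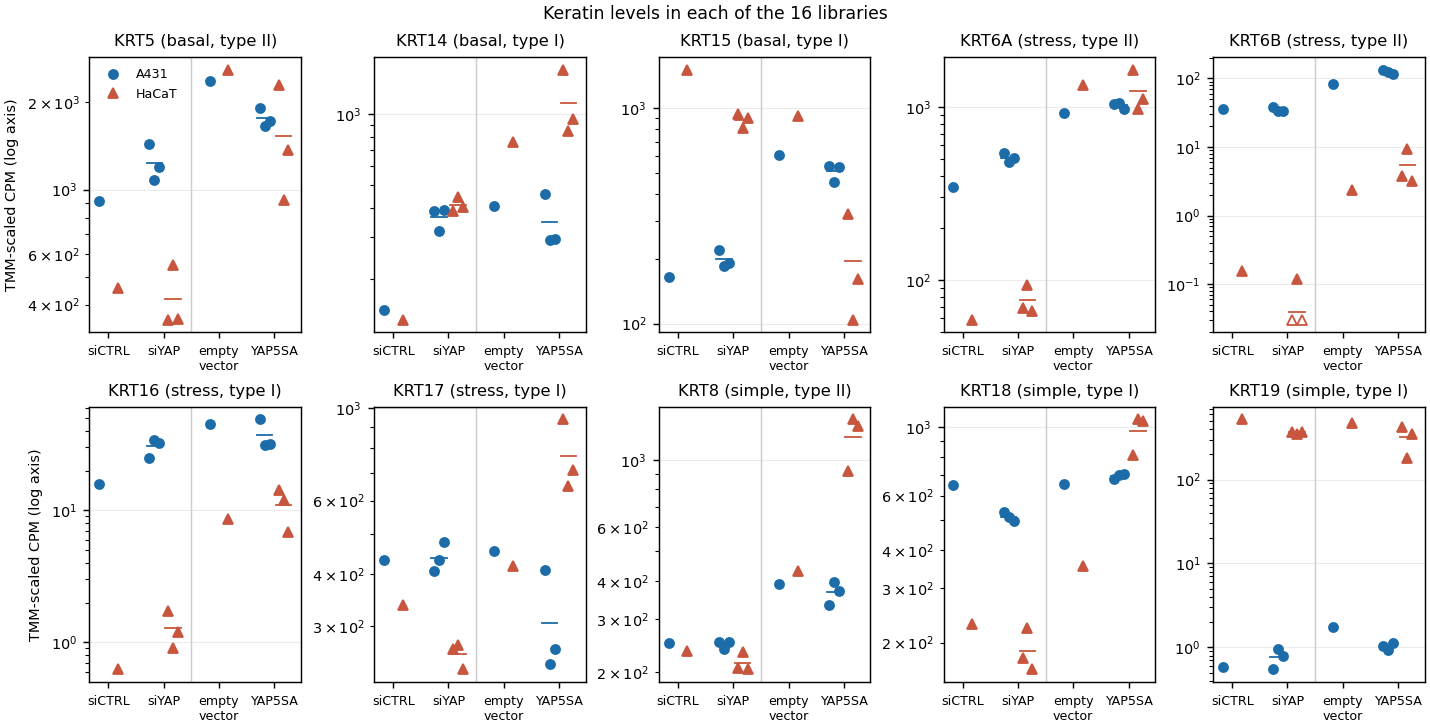
Level of each keratin (CPM on a log axis) in each of the 16 libraries, with blue circles for A431 and red triangles for HaCaT; short lines are means of triplicates and open triangles at the foot of the KRT6B panel are libraries with 0 counts. KRT19 separated the lines in every group, KRT6A in HaCaT cells separated the siRNA from the vector libraries, and KRT8 and KRT18 were highest in the HaCaT YAP5SA libraries.

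KRT19 separated the lines in every group. It is a keratin without a tail domain, common in simple and glandular epithelia. It was at 0.546 to 1.74 CPM in the 8 A431 libraries and at 182.1 to 525.1 CPM in the 8 HaCaT libraries, and no HaCaT library came near the A431 range. In bulk RNA, fewer cells with a keratin and less of it per cell cannot be told apart. Per kb of transcript, the scale on which levels of different genes can be compared, KRT19 was the last of the 10 keratins in all A431 groups, at 0.423 to 1.26 CPM per kb. In HaCaT cells it was the first under siCTRL (377.8 CPM per kb) and siYAP (263.0 ± 7.82 CPM per kb, SD, n = 3), the fourth in the empty vector library (340.4 CPM per kb) and the seventh with YAP5SA (229.9 ± 89.8 CPM per kb, SD, n = 3).

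KRT5, the type II basal keratin, led in 3 of the 4 A431 groups. It measured 488.5 ± 72.9 CPM per kb with siYAP and 697.4 ± 53.7 with YAP5SA (SD, n = 3), and 940 in the empty vector library, whereas in the siCTRL library KRT18 was ahead (416.7 against 359.6 CPM per kb). KRT18 was the second in those 3 groups, and in the YAP5SA libraries its range overlapped that of KRT6A (446.0 ± 9.19 and 442.6 ± 17.2 CPM per kb). KRT6B and KRT16, of the same stress group as KRT6A, stayed far lower, at 15.3 to 54.7 and 9.70 to 27.2 CPM per kb as group means. In HaCaT cells given YAP5SA, the first 6 keratins could not be ordered, since each overlapped the next: KRT14 (669.3 ± 225.7), KRT8 (633.3 ± 126.7), KRT18 (624.5 ± 90.4), KRT5 (604.3 ± 277.8), KRT6A (538.3 ± 152.9) and KRT17 (505.6 ± 101.2 CPM per kb, SD, n = 3). With siYAP, HaCaT libraries of KRT19 and KRT14 overlapped, as did those from KRT17 through KRT15, KRT5 and KRT18 to KRT8 (169.3 down to 114.1 CPM per kb as means).

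Parts of this order rested on the length used. By coding length KRT5 was also ahead of KRT18 in the A431 siCTRL library (514.2 and 504.6 CPM per coding kb), and KRT6A preceded KRT18 in the A431 empty vector (548.1 and 505.9) and YAP5SA (604.3 and 540.0) groups. The annotated KRT15 transcript measured 5237 bases, of which 1368 were coding, and by coding length KRT15 was the first keratin in the HaCaT siCTRL and siYAP libraries (1105 and 644.5 CPM per coding kb). By transcript it was the second and the fourth there. Over HaCaT libraries 4 of the 10 keratins had the same rank by both lengths, and over A431 libraries 7 did.

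Triplicates were compared between the lines under the same treatment. The YAP1 level was not matched. It was higher in HaCaT cells by 1.935 with siYAP (SE 0.38, adjusted p = 0.000545) and 2.376 with YAP5SA (SE 0.36, adjusted p = 8.96e-05). Both are log2 differences from the edgeR quasi-likelihood test. The part of the YAP1 level in the keratin differences between the lines was not tested. The siYAP and YAP5SA libraries differ in delivery as well as in YAP, so these cannot be told apart where a line difference changed between them. Among siYAP libraries, 2 keratins were called higher in HaCaT cells and 6 lower, where 26.9% of all genes tested were called higher and 31.7% lower. Among YAP5SA libraries 5 were called higher and 3 lower, where 23.5% and 26.6% of all genes were. The members' median log2 fold change was -1.11 in siYAP libraries (all genes, -0.03) and 0.38 in YAP5SA libraries (all genes, -0.04). KRT19 was higher in HaCaT cells by 8.94 with siYAP (SE 0.35, adjusted p = 4.25e-10) and 8.25 with YAP5SA (SE 0.33, adjusted p = 9.34e-10) on the log2 scale.

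KRT15 changed sides between the treatments. With siYAP it was at 184.9 to 219.9 CPM in A431 and 806 to 937.2 CPM in HaCaT cells, 2.15 higher in HaCaT on the log2 scale (SE 0.30, adjusted p = 2.49e-05). With YAP5SA it was at 456 to 539.1 CPM in A431 and 104.2 to 322.4 CPM in HaCaT cells, a log2 difference of -1.38 (SE 0.29, adjusted p = 0.00117). KRT17 and KRT18 changed sides the other way. KRT17 differed by -0.77 with siYAP (SE 0.18, adjusted p = 0.00227) and 1.33 with YAP5SA (SE 0.19, adjusted p = 4.67e-05), and KRT18 by -1.44 (SE 0.13, adjusted p = 5.15e-07) and 0.49 (SE 0.13, adjusted p = 0.00555). KRT14 and KRT8 did not pass the test in siYAP libraries (0.17 and -0.20) and were higher in HaCaT cells in YAP5SA libraries, by 1.68 (SE 0.22) and 1.70 (SE 0.14; adjusted p = 2.96e-05 and 3.44e-07). All of these are edgeR quasi-likelihood tests on the log2 scale.

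The stress keratins KRT6B and KRT16 were lower in HaCaT cells in both. KRT6B was at 33.2 to 37.8 CPM in the A431 siYAP libraries. In the HaCaT siYAP libraries it had 2.43 counts at most and 0 counts in 2 of 3, where 3 counts correspond to 0.0991 to 0.146 CPM. The lowest A431 siYAP library was thus at least 228-fold above the highest of these limits. With YAP5SA it was at 115.5 to 134.8 CPM in A431 and 3.18 to 9.27 CPM in HaCaT cells, a log2 difference of -4.54 (SE 0.34, adjusted p = 1.66e-07) that was -5.16 without HaCaT YAP5SA replicate 2. KRT16 was lower in HaCaT cells by 23.7-fold with siYAP and 3.40-fold with YAP5SA (log2 SE 0.33 and 0.27, adjusted p = 5.48e-08 and 8.88e-05). KRT5 and KRT6A were lower with siYAP, by 2.94-fold and 6.67-fold (log2 SE 0.27 and 0.19, adjusted p = 0.000207 and 3.84e-08), and did not pass the test with YAP5SA (log2 differences of -0.21 and 0.28, adjusted p = 0.534 and 0.188). KRT5 passed it, at -0.62 (adjusted p = 0.0256), without HaCaT YAP5SA replicate 1, and KRT6A at 0.43 (adjusted p = 0.0475) without HaCaT YAP5SA replicate 2. In the single controls of A431 and HaCaT cells KRT6A was at 345.7 and 58.84 CPM with siCTRL, and 927.3 and 1334 CPM with the empty vector. KRT5 was at 910.1 and 456.8 CPM, and 2379 and 2597 CPM. In both pairs of controls KRT15 was higher in HaCaT cells, and KRT17 and KRT18 were lower.

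**Figure D2:**
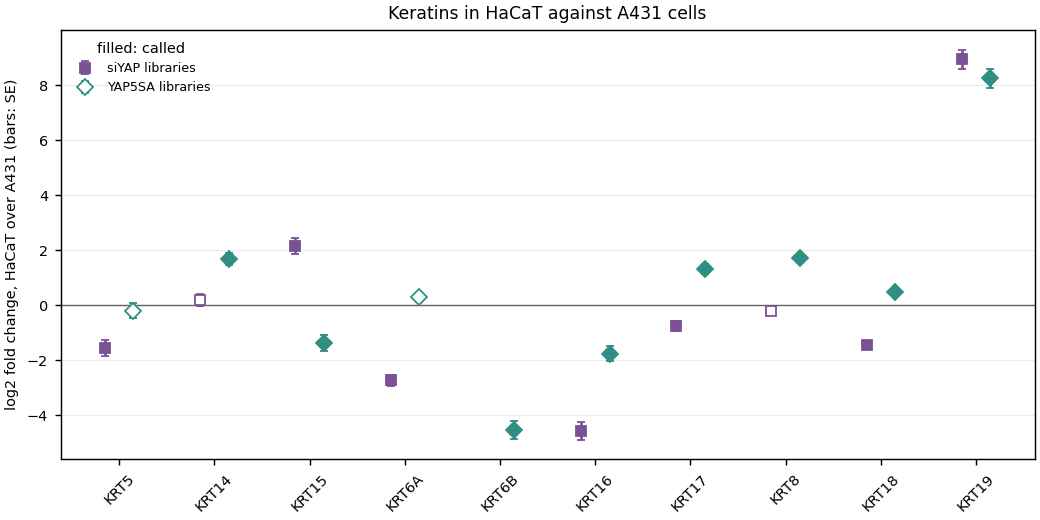
Log2 fold change of HaCaT over A431 (points, with SE) for siYAP triplicates (squares) and YAP5SA triplicates (diamonds), filled where called; KRT6B with siYAP is left out because HaCaT libraries were at or under 3 counts. KRT19 lies at 8.94 and 8.25, and KRT15, KRT17 and KRT18 lie on opposite sides of 0 in the siYAP and YAP5SA libraries.

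The siRNA libraries and the vector libraries of a line also stood apart, treatment aside. KRT6A, the wound-induced type II keratin, was at 58.8 CPM in the HaCaT siCTRL library and 66.2 to 93.5 CPM with siYAP, but at 1334 CPM with the empty vector and 978.4 to 1644 CPM with YAP5SA. All 4 vector libraries thus exceeded all 4 siRNA libraries, and the empty vector was 22.7-fold above siCTRL. KRT16, its usual type I partner, was at 0.625 CPM in the HaCaT siCTRL library and 8.54 CPM in the empty vector library, a 13.7-fold difference. KRT5 (456.8 and 2597 CPM) and KRT14 (133.7 and 762.9 CPM) differed by 5.69-fold and 5.71-fold. KRT6B was at 2.84 counts in the siCTRL library and 2.36 CPM with the empty vector, at least 14.4-fold higher.

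In A431 cells the same pair of controls differed less for most members. KRT15 was at 165.6 CPM with siCTRL and 604.3 CPM with the empty vector, 3.65-fold apart, and in HaCaT cells at 1512 and 922 CPM, a ratio of 0.610. KRT16, KRT14, KRT6A and KRT5 were 2.80-fold, 2.75-fold, 2.68-fold and 2.61-fold higher in the A431 empty vector library, and KRT6B 2.36-fold. KRT17, KRT8 and KRT18 differed by less than 1 on the log2 scale in both lines. KRT19 was 2.97-fold apart in A431 cells, at levels of 0.588 and 1.74 CPM.

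Past a log2 difference of 1, with 0.5 CPM added to each value, 7 of the 10 keratins were higher and 0 lower in the A431 empty vector library, where 3.85% of all genes tested were higher and 1.99% lower. In HaCaT cells 5 were higher and 0 lower, where 14.8% and 17.3% of all genes were. These are single libraries, with no test. Over all libraries of a line, 6 keratins in A431 cells (KRT5, KRT15, KRT6A, KRT6B, KRT8 and KRT18) had all 4 vector libraries above all 4 siRNA libraries, and 0 had them all below (15.1% and 13.9% of all genes). In HaCaT cells 8 keratins did, all but KRT15 and KRT19, and 0 had them below (26.7% and 28.4% of all genes). Delivery by siRNA or vector cannot be told apart from any other difference between those cultures, and KRT19 and KRT6B rest on few counts where they were near 0.

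Markers of other cell types moved with the same division. The endothelial list (PECAM1, VWF, CDH5 and KDR) summed to 15.96 to 59.1 CPM in the HaCaT siRNA libraries and 1.19 to 2.47 CPM in the vector libraries, and to 18.3 to 33.8 and 3.87 to 5.92 CPM in A431 cells. CDH5 made most of it in the siRNA libraries (12.1 to 51.8 CPM in HaCaT and 15.75 to 31.0 CPM in A431 cells). CDH5 also moved with the treatments in HaCaT cells, from 51.8 CPM with siCTRL to 12.1 to 13.6 CPM with siYAP (-2.03 on the log2 scale, SE 0.28, adjusted p = 0.00148) and from 0.127 CPM with the empty vector to 0.316 to 0.994 CPM with YAP5SA (2.35, SE 0.64, adjusted p = 0.0304). The HaCaT vector values were below 1 CPM and rest on few counts, and each control was 1 library. KDR was at 0 in all siRNA libraries. The fibroblast list of 6 genes summed to 21.5 to 27.9 CPM in HaCaT siRNA libraries and 0.66 to 1.79 CPM in vector libraries, and to 10.2 to 14.8 and 2.45 to 5.46 CPM in A431 cells, with COL1A2 at 0 in the siRNA libraries of both lines. The leukocyte and melanocyte lists stayed at 3.79 CPM or below in every library. The part of these markers in the keratin differences was not tested.

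**Figure D3:**
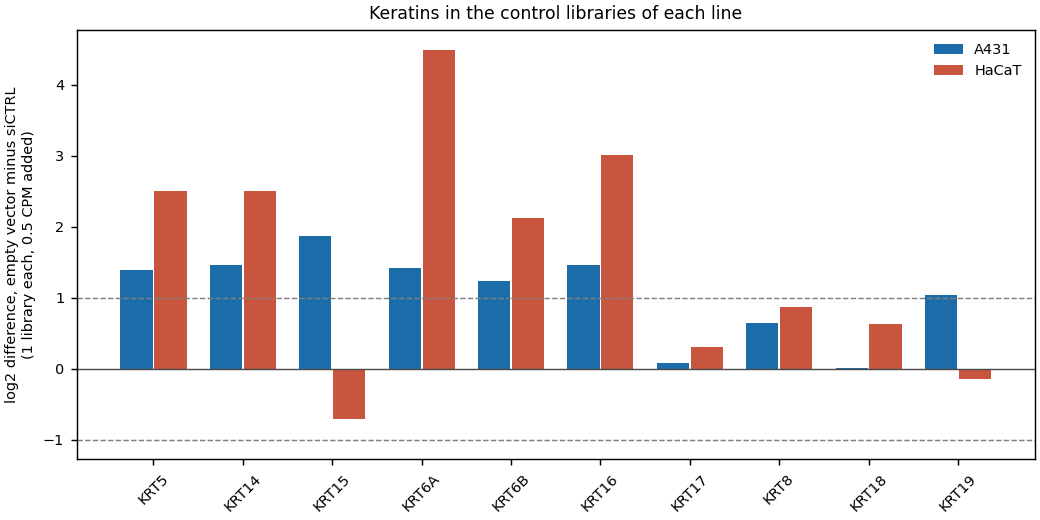
Log2 difference of the empty vector library over the siCTRL library for each keratin (bars, 1 library each, 0.5 CPM added), blue for A431 and red for HaCaT, with dashed lines at 1 and -1. KRT6A in HaCaT cells is the tallest bar, KRT15 is the only keratin with bars well away from 0 on both sides, and the HaCaT KRT6B bar rests on 2.84 counts in the siCTRL library.

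KRT14 was the keratin that rose after YAP knockdown. In A431 cells it was at 147 CPM with siCTRL and at 388.5, 317 and 389.6 CPM after knockdown, which is 1.31 higher on the log2 scale (SE 0.33, adjusted p = 0.0401, edgeR quasi-likelihood test). In HaCaT cells it was at 133.7 CPM with siCTRL and at 386.1, 445.3 and 402.2 CPM after knockdown, which is 1.62 higher (SE 0.34, adjusted p = 0.0149). All 6 siYAP libraries were above their control, and over both lines the change was 1.47 (SE 0.24, adjusted p = 0.00196). The siCTRL library was the lowest of the 8 libraries for KRT14 in each line. Taking siCTRL and empty vector as 2 controls, the values were 0.40 in A431 cells (adjusted p = 0.786) and -0.13 in HaCaT cells (adjusted p = 0.886). Such a control joins a siRNA library with a vector library. Here and below, values against it thus mix the treatment with the difference between those cultures. The A431 call was lost without any 1 of the siYAP libraries (adjusted p = 0.0512 to 0.0965). DESeq2 also called KRT14 in each line (adjusted p = 0.000748 and 9.7e-06).

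In A431 cells KRT14 was the 1 keratin called higher with siYAP and 0 were called lower, beside 1.81% and 3.78% of all genes tested. In HaCaT cells the counts were also 1 higher and 0 lower, beside 2.37% and 3.3% of all genes, and over both lines again 1 and 0, beside 5.3% and 7.68%. The members' median log2 fold change was 0.30 in A431 cells and -0.21 in HaCaT cells (all genes, 0.03 in both). KRT5, the filament partner of KRT14, did not pass the test in either line, with log2 fold changes of 0.44 in A431 (adjusted p = 0.552) and -0.12 in HaCaT cells (adjusted p = 0.902). With both controls of a line, KRT5 was -0.41 in A431 cells (adjusted p = 0.787) and passed the test in HaCaT cells, at -1.86 (adjusted p = 0.0306). Its ratio to KRT14, per kb, was 4.07 in the A431 siCTRL library and 2.01 to 2.43 with siYAP, and 2.24 in the HaCaT siCTRL library and 0.582 to 0.809 with siYAP.

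KRT16 and KRT6A were above the siCTRL library in all 6 siYAP libraries without passing the test. KRT16 was at 15.95 CPM with siCTRL and 24.99 to 34.4 CPM with siYAP in A431 cells (log2 fold change 0.94, SE 0.39, adjusted p = 0.184). In HaCaT cells it was at 0.625 and 0.910 to 1.72 CPM (1.09, SE 0.66, adjusted p = 0.394). Over both lines KRT16 had an adjusted p of 0.0957 in edgeR and 0.0295 in DESeq2. KRT6A was at 345.7 CPM with siCTRL and 479.4 to 539.5 CPM with siYAP in A431 cells (0.56, SE 0.26, adjusted p = 0.224), and passed the test, of the alternatives tried, only when that line was fitted alone (adjusted p = 0.0408). With siCTRL and empty vector as 2 controls the direction turned in HaCaT cells. KRT6A was then called lower there (-3.19, adjusted p = 0.0117) and over both lines (-1.76, adjusted p = 0.0305), and KRT16 was at -1.88 (adjusted p = 0.0728). The HaCaT empty vector library in that control was at 1334 CPM for KRT6A and 8.54 CPM for KRT16, against 58.84 and 0.625 CPM with siCTRL.

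No simple keratin passed the test with siYAP against siCTRL. KRT8 was at 250.2 CPM with siCTRL and 238.5 to 251.6 CPM with siYAP in A431 cells, and at 235.6 and 204.4 to 232.5 CPM in HaCaT cells. KRT18 was below its control in all 6 siYAP libraries, at 650.9 and 495.5 to 531 CPM in A431 and 229.5 and 163.7 to 223.7 CPM in HaCaT cells (log2 fold change over both lines -0.31, SE 0.13, adjusted p = 0.12). It passed over both lines without HaCaT siYAP replicate 2 (-0.38, adjusted p = 0.0448), and, with both controls of a line, in HaCaT cells (-0.63, adjusted p = 0.0305) and over both lines (-0.49, adjusted p = 0.0216). KRT15 had log2 fold changes of 0.26 in A431 (adjusted p = 0.764) and -0.78 in HaCaT cells (adjusted p = 0.278). KRT17, KRT19 and A431 KRT6B also did not pass the test, and no fold is given for KRT6B in HaCaT cells, where both groups were under 3 counts. The difference in the siYAP effect between the lines was called for 0 keratins in either direction by edgeR (0.123% and 0.0477% of all genes were called) and by DESeq2, and 0 had an unadjusted p below 0.05.

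In HaCaT cells YAP5SA raised KRT8, KRT18 and KRT17 and lowered KRT15. KRT8, the type II simple keratin, was at 432.7 CPM with the empty vector and at 919.5, 1363 and 1293 CPM with YAP5SA, a log2 fold change of 1.46 (SE 0.21, adjusted p = 0.00265). KRT18, its type I partner, was at 355 CPM and at 812.6, 1063 and 1051 CPM, a log2 fold change of 1.46 (SE 0.20, adjusted p = 0.00216). All 3 YAP5SA libraries were above every other HaCaT library for both genes. The ratio of KRT8 to KRT18, per kb, was 1.01 with the empty vector and 0.939 to 1.065 with YAP5SA.

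KRT17, a type I stress keratin, was at 418.4 CPM with the empty vector and at 940.5, 648.8 and 711.7 CPM with YAP5SA (log2 fold change 0.87, SE 0.27, adjusted p = 0.0481). This call was near the threshold, and was lost without YAP5SA replicate 1 (adjusted p = 0.0653), without replicate 3 (adjusted p = 0.0712) or with HaCaT cells fitted alone (adjusted p = 0.0528). KRT15 was at 922 CPM with the empty vector and at 322.4, 104.2 and 161.7 CPM with YAP5SA. It fell by 2.23 on the log2 scale (SE 0.37, adjusted p = 0.00516), a 4.70-fold decrease, and the 3 libraries were the lowest for KRT15 in HaCaT cells.

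The count in HaCaT cells was thus 3 keratins called higher with YAP5SA, 1 lower and 6 not called, beside 6.99% and 6.64% of all genes. The members' median log2 fold change was 0.46 (all genes, 0.01). KRT14 was at 762.9 CPM with the empty vector and at 1541, 845.8 and 950 CPM with YAP5SA, above its control in each library, and did not pass the test (0.54, SE 0.32, adjusted p = 0.256). KRT5 was at 2597 CPM and at 2298, 918.9 and 1371 CPM, below its control in each library, with a log2 fold change of -0.76 (SE 0.36, adjusted p = 0.168). It passed the test without YAP5SA replicate 1 (-1.18, adjusted p = 0.0118). KRT19 was at 473.1 CPM and 182.1 to 425.7 CPM (-0.57, SE 0.31, adjusted p = 0.223), and also passed without replicate 1 (-0.83, adjusted p = 0.0468).

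The remaining stress keratins did not pass the test in HaCaT cells with YAP5SA. KRT6A was at 1334 CPM with the empty vector and at 1644, 978.4 and 1108 CPM (log2 fold change -0.10, SE 0.25, adjusted p = 0.809). KRT16 was at 8.54 CPM and 6.84 to 14.2 CPM (0.37, SE 0.39, adjusted p = 0.541). KRT6B was at 2.36 CPM and 3.18 to 9.27 CPM (1.19, SE 0.51), with an adjusted p of 0.13 in edgeR and 0.0453 in DESeq2, and the change was 0.56 without YAP5SA replicate 2.

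The 3 HaCaT YAP5SA libraries differed among themselves more than the other triplicates. Over the 10 keratins the median coefficient of variation was 34.0%, against 8.97% in A431 YAP5SA libraries, 8.75% in A431 siYAP libraries and 12.2% in HaCaT siYAP libraries. Replicate 2, which had the most YAP1 (22243 CPM against 7546 and 10063), was the highest of the 3 for KRT8, KRT18 and KRT6B. It was the lowest for KRT5, KRT14, KRT15, KRT6A, KRT17 and KRT19. Replicate 1, which had the least YAP1, was the highest for KRT5, KRT14, KRT15, KRT6A, KRT16, KRT17 and KRT19 and the lowest for KRT8 and KRT18. With 3 libraries no test of this order was made.

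In A431 cells no keratin was called with YAP5SA by edgeR or by DESeq2, and 1 had an unadjusted p below 0.05. None of the genes tested was called by edgeR in this comparison either way (0.0% higher and 0.0% lower). KRT17, the keratin with that p, was at 455.2 CPM with the empty vector and at 409.5, 243 and 264.3 CPM with YAP5SA (log2 fold change -0.58, SE 0.25, adjusted p = 0.803). KRT8 was at 391.4 CPM and 332 to 396.4 CPM (-0.09, SE 0.19), KRT18 at 652.6 CPM and 680.3 to 707.2 CPM (0.09, SE 0.18), and KRT15 at 604.3 CPM and 456 to 539.1 CPM (-0.25, SE 0.40). KRT6B was at 83.8 CPM and at 134.8, 123.8 and 115.5 CPM, above its control in each library (0.57, SE 0.42, adjusted p = 0.836). The members' median was -0.23 (all genes, 0.02).

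The difference in the YAP5SA effect between the lines was 1.56 for KRT8 (SE 0.27, adjusted p = 0.0523), 1.36 for KRT18 (SE 0.26, adjusted p = 0.0533), 1.45 for KRT17 (SE 0.37, adjusted p = 0.0699) and -1.99 for KRT15 (SE 0.58, adjusted p = 0.0914), each as HaCaT minus A431 on the log2 scale. By edgeR 0 keratins passed, beside 0.0682% and 0.0204% of all genes, although these 4 had an unadjusted p below 0.05. DESeq2 called all 4, with adjusted p from 5.5e-05 for KRT8 to 0.0104 for KRT15, and 928 of all genes. YAP1 stood at 1494 to 3244 CPM in the A431 and 7546 to 22243 CPM in the HaCaT YAP5SA libraries. The part of that level in these line differences was not tested. Over both lines together edgeR called KRT8 (0.68, SE 0.14, adjusted p = 0.0323) and KRT18 (0.78, SE 0.13, adjusted p = 0.0182) higher and KRT15 lower (-1.24, SE 0.27, adjusted p = 0.0382), 2 and 1 keratins beside 1.38% and 0.661% of all genes. The 3 of them were calls of HaCaT cells. All 3 were lost without A431 YAP5SA replicate 3 (adjusted p = 0.0681, 0.0504 and 0.0782), and KRT8 and KRT15 without A431 YAP5SA replicate 2 or HaCaT YAP5SA replicate 3. KRT15 also lost the call with both controls of a line as 1 group (adjusted p = 0.058).

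**Figure D4:**
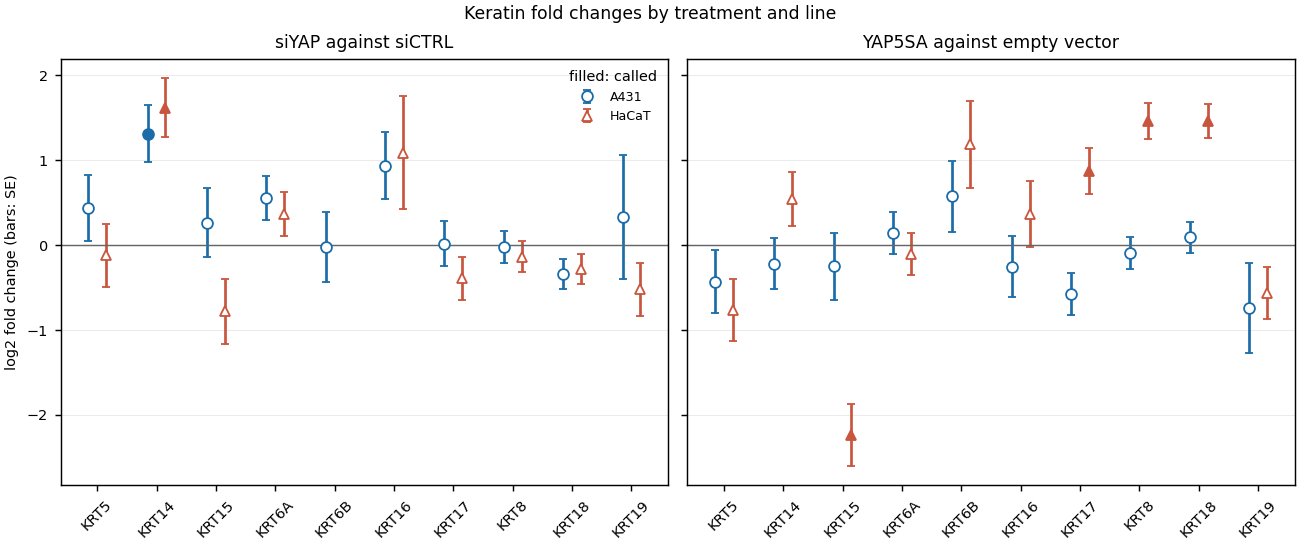
Log2 fold change of each keratin (points, with SE) for siYAP against siCTRL (left) and YAP5SA against empty vector (right), circles for A431 and triangles for HaCaT, filled where called; HaCaT KRT6B with siYAP is left out because both groups were under 3 counts. KRT14 is filled in both lines on the left, at 1.31 and 1.62, and on the right only HaCaT KRT15, KRT17, KRT8 and KRT18 are filled.

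As a share of each library, the 10 keratins together made 0.285% to 0.910% of assigned read pairs. They made 0.296% to 0.391% in A431 siRNA libraries and 0.477% to 0.601% in A431 vector libraries, and 0.285% to 0.353% and 0.578% to 0.910% in HaCaT cells. Per kb of transcript, the simple keratins made 24.0% of the keratin level in the HaCaT empty vector library and 28.9%, 46.7% and 43.5% in the YAP5SA libraries, while basal keratins made 50.1% and 41.7%, 27.1% and 30.8%. In A431 cells the simple share was 23.3% with the empty vector and 23.9%, 29.2% and 28.6% with YAP5SA. With siYAP it was below siCTRL in both lines, at 25.6% to 27.9% against 36.9% in A431 and 37.8% to 39.5% against 44.9% in HaCaT cells. The siCTRL library was the highest of all A431 libraries, and the A431 siYAP values lay within the range of the A431 vector libraries. A share also moves with the other keratins, and KRT14 was lowest in the siCTRL library of each line. By coding length, which raises the share of KRT15, the HaCaT siYAP and siCTRL values were 29.4% to 29.5% and 30.5%.

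Type II over type I keratins, per kb, was 0.791 to 1.06 in A431 siRNA libraries and 1.295 to 1.54 in A431 vector libraries. In HaCaT cells it was 0.289 to 0.382 in siRNA libraries, 1.24 with the empty vector and 0.853 to 0.863 with YAP5SA. The ratio of KRT5 to KRT14 in HaCaT cells was 2.244 with siCTRL and 2.235 with the empty vector, and was lower with siYAP, as given above, and with YAP5SA (0.713 to 0.979). KRT6A exceeded KRT16 in every library, by 9.92-fold to 23.7-fold in A431 and 28.6-fold to 115.3-fold in HaCaT cells. The ratio of KRT8 to KRT18 was 0.319 to 0.498 in A431 and 0.852 to 1.065 in HaCaT cells, and the lines did not overlap.

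**Figure D5:**
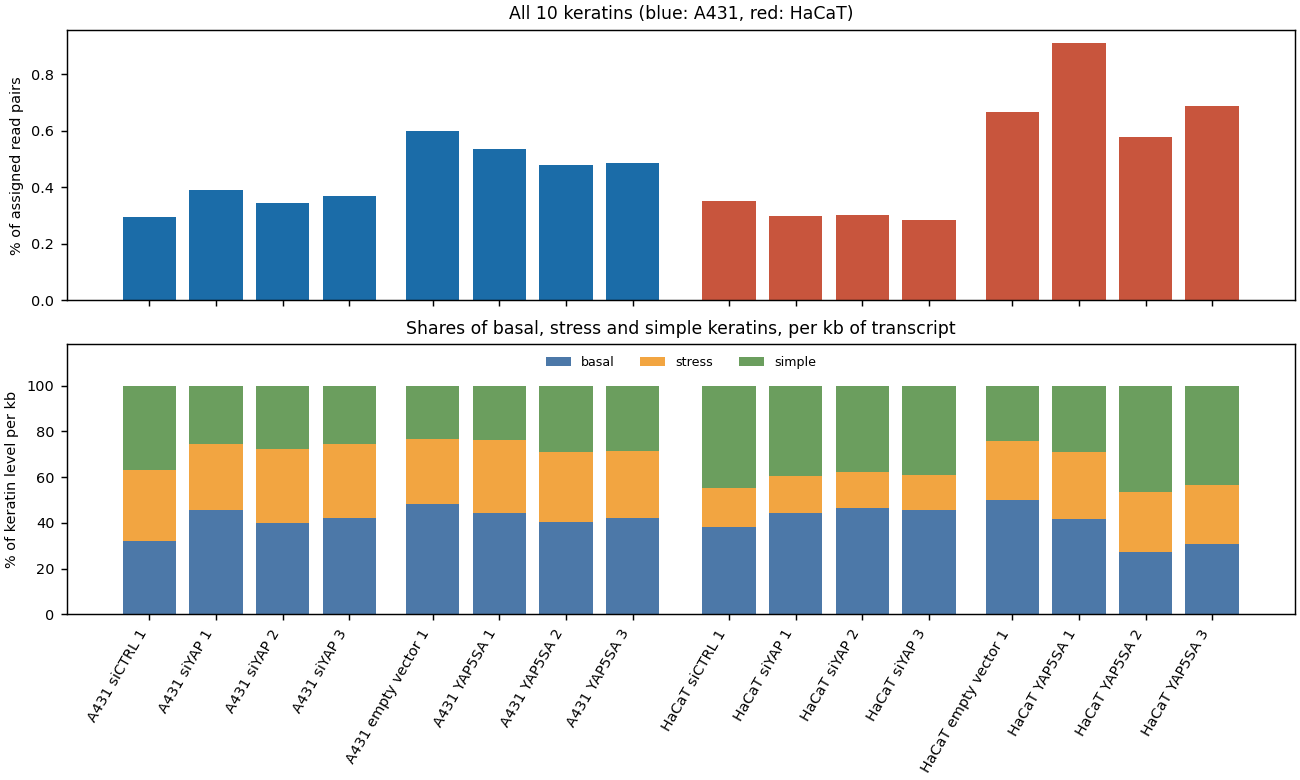
Upper panel, the 10 keratins together as a percent of assigned read pairs in each library (blue for A431, red for HaCaT); lower panel, basal (KRT5, KRT14, KRT15), stress (KRT6A, KRT6B, KRT16, KRT17) and simple (KRT8, KRT18, KRT19) keratins as percents of the summed level per kb of transcript. Vector libraries exceed siRNA libraries in both lines in the upper panel, and the simple share is 46.7% and 43.5% in HaCaT YAP5SA replicates 2 and 3 against 24.0% with the empty vector.

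Members were compared with all genes of mean log2 CPM above 1 by their pattern over the 8 group means, each gene centred on its own mean, using the root mean square difference of log2 CPM. Nearest to KRT15 was KRT13 (0.40), its neighbour on chromosome 17 and a keratin of mucosal epithelium, and nearest to KRT16 was KLF4 (0.28), a transcription factor of epidermal differentiation. For the other keratins the nearest genes were SNORA4 for KRT5 (0.20), SPOCK1 for KRT14 (0.30), PMAIP1 for KRT6A (0.27), AIM2 for KRT6B (0.55), ACOT1 for KRT17 (0.19), FAM167A for KRT8 (0.22), DDX12P for KRT18 (0.17) and SPG20 for KRT19 (0.55). The usual filament partner was not among the nearest 3 genes for any member. KRT6A was at rank 404 of 12236 genes from KRT16 and KRT16 at rank 661 from KRT6A. KRT18 was at rank 1838 from KRT8, KRT8 at rank 2018 from KRT18, KRT14 at rank 4087 from KRT5 and KRT5 at rank 2750 from KRT14. The distance of KRT5 and KRT14 (0.91) was close to the SD of each one's own pattern (0.94 and 0.96). KRT17 was at rank 5457 from KRT6B and KRT6B at rank 12152 from KRT17. KRT5 was at rank 10295 from KRT15 and KRT8 at rank 3980 from KRT19.

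Sequence shared between keratin genes limits how far some members can be told apart. Of the 75-base windows of its transcript, KRT6B shared 34.9% with another gene and KRT6A 26.2%, chiefly with KRT6C and with each other. KRT8 shared 17.8% with pseudogenes that the count table does not list, KRT14 10.0% with KRT16 and its pseudogenes, KRT16 9.68%, KRT18 5.85%, KRT17 4.57% and KRT5 2.44%, and KRT15 and KRT19 shared none. KRT6C was at 0.185 to 1.07 CPM in A431 libraries and at 2.82 CPM with the empty vector and 4.33 to 9.13 CPM with YAP5SA in HaCaT cells, where KRT6B was at 2.36 and 3.18 to 9.27 CPM. KRT6B and KRT6C in HaCaT cells are therefore uncertain. KRT16 shared 5.35% of its windows with KRT14. In HaCaT cells KRT16 was at 0.625 to 14.2 CPM and KRT14 at 133.7 to 1541 CPM, so KRT16 is uncertain there too.

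Of the 44 other keratin genes in the table, 13 passed the filter. None was called with siYAP in either line, or with YAP5SA in A431 cells, by edgeR or DESeq2 (1 had an unadjusted p below 0.05 in A431 siYAP, 0 in the other comparisons). Of all genes edgeR called 1.81% higher and 3.78% lower in A431 siYAP, 2.37% and 3.3% in HaCaT siYAP, and 0.0% in A431 YAP5SA. At such shares 0 calls among 13 genes did not set them apart. In HaCaT cells with YAP5SA 2 rose and 1 fell, where 6.99% and 6.64% of all genes did. KRT7, a simple-type type II keratin, was at 346.8 CPM with the empty vector and 731.6 to 871.4 CPM with YAP5SA (log2 fold change 1.17, SE 0.24, adjusted p = 0.0102), and KRT80 at 27.3 and 59.8 to 74.1 CPM (1.25, SE 0.19, adjusted p = 0.00329). KRT10, the type I keratin of differentiating suprabasal cells, was at 148.7 CPM and 11.8 to 29.3 CPM (-2.99, SE 0.31, adjusted p = 0.000548). The median over the 13 was -0.48.

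Of 22 genes for keratin linkers and anchors, all tested, 2 rose and 5 fell in HaCaT cells with YAP5SA (6.99% and 6.64% of all genes). ITGB4, the integrin subunit of hemidesmosomes, rose from 79.2 to 149.7 to 222 CPM (log2 fold change 1.22, SE 0.25, adjusted p = 0.0101), and FAM83H, which binds keratin, from 26.8 to 48.2 to 70.9 CPM (1.17, SE 0.25, adjusted p = 0.0124). The desmosomal cadherins DSG3 (-1.22, SE 0.25), DSG2 (-0.84, SE 0.24) and DSC3 (-0.69, SE 0.17) had the largest decreases (adjusted p = 0.0112, 0.0357 and 0.0212). In A431 cells with siYAP ITGB4 rose (0.89, SE 0.24, adjusted p = 0.0473) and TCHP, trichoplein, fell (-0.99, SE 0.25, adjusted p = 0.0401), beside 1.81% and 3.78% of all genes. None was called in HaCaT cells with siYAP by edgeR (2 by DESeq2, and 6 with an unadjusted p below 0.05), or in A431 cells with YAP5SA (0 by DESeq2, 1 unadjusted). Of all genes edgeR called 2.37% higher and 3.3% lower in the former and 0.0% in the latter.

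Of 15 other intermediate filament genes 9 were tested. With siYAP in A431 cells BFSP1, a lens filament protein, rose (1.75, SE 0.45, adjusted p = 0.0419) and LMNB1, a nuclear lamin, fell (-1.04, SE 0.25, adjusted p = 0.0304), beside 1.81% and 3.78% of all genes. In the other 3 treatment comparisons edgeR and DESeq2 called 0 (3, 0 and 1 with an unadjusted p below 0.05 in HaCaT siYAP, A431 YAP5SA and HaCaT YAP5SA). Of all genes edgeR called 2.37% higher and 3.3% lower, 0.0% either way, and 6.99% and 6.64% in these, in that order.

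Of 26 genes known to regulate keratin genes, all tested, CEBPB, a factor of early keratinocyte differentiation, rose with siYAP in A431 (0.87, SE 0.21, adjusted p = 0.0305) and HaCaT cells (1.09, SE 0.23, adjusted p = 0.0164). GRHL2, a factor of epithelial identity, fell in both (-0.49 and -0.48, SE 0.12, adjusted p = 0.0297 and 0.0289). EGR1 fell in A431 cells (-1.45, SE 0.32, adjusted p = 0.021) and TEAD4 in HaCaT cells (-0.82, SE 0.22, adjusted p = 0.0449). With siYAP 1 of the 26 was thus called higher and 2 lower in each line. The shares of all genes were 1.81% and 3.78% in A431 and 2.37% and 3.3% in HaCaT cells. With YAP5SA in HaCaT cells 4 rose, of which the 3 with the largest change are named, and 3 fell (6.99% and 6.64% of all genes). FOSL1, an AP-1 subunit, rose from 6.78 to 39.4 to 53.4 CPM (2.81, SE 0.41, adjusted p = 0.00325), RELA by 1.10 (SE 0.17, adjusted p = 0.00447) and TEAD4 by 0.97 (SE 0.22, adjusted p = 0.0163), while ELF3 (-0.82, SE 0.25), KLF5 (-0.72, SE 0.20) and SP3 (-0.47, SE 0.12) fell (adjusted p = 0.0427, 0.0318 and 0.0258). None was called in A431 cells with YAP5SA by edgeR or DESeq2, and 5 had an unadjusted p below 0.05. These fold changes are on the log2 scale, from the edgeR quasi-likelihood test.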

How the data were processed

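RNA-seq of 16 libraries was analysed. According to the study's methods and the submitters' notes, the authors trimmed paired reads to 75 bases and assigned them to RefSeq genes with RSEM (1.2.11 in the notes, genome hg19), giving the deposited estimated counts per gene, which are not normalised. Pairs shared by near-identical keratins were divided by estimation. Estimated counts were rounded, genes with a mean above 10 counts were kept, and edgeR 4.0.16 (R 4.3.3) fitted 1 quasi-likelihood model of 8 groups with TMM factors (0.914 to 1.07). The spread came from triplicates (8 residual degrees of freedom) because each control was 1 library. Benjamini-Hochberg adjustment covered all 14673 genes, and a call needed an adjusted p below 0.05 and mean log2 CPM above 1. SEs are from the F statistic. The fit was tested on simulated data.

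Levels per kb used GENCODE transcripts matched to RefSeq on GRCh38, so lengths may differ from those behind the counts. The members and all lists were chosen with earlier results of these data known. The text names all 10 keratins, KRT6C, YAP1, EGFR, for each other list up to 3 called genes per direction and treatment comparison with the largest change, and the nearest patterns. KRT6B folds against groups at or under 3 counts are lower bounds; floors cover counting error only. Alternatives were DESeq2 1.42.0, RLE factors, 2 other count filters, each line alone, each treated library left out, both controls of a line together, no limit on log2 CPM, the replicate block, another denominator for shares, and other lengths.

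Deviations of same-numbered libraries of the lines from their group means correlated weakly across genes. The correlations were 0.280, 0.116 and 0.101 for YAP5SA and 0.036, 0.117 and 0.178 for siYAP. Differently numbered libraries were not compared, so a pairing of the numbers is not shown. No replicates were close enough to be 1 library deposited again.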

Additional observations from a re-analysis of the deposited data

Results flagged for a closer look

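For a pair of results every treated library of one line lay above its control and every treated library of the other line below. The KRT15 effect of siYAP was 0.26 in A431 and -0.78 in HaCaT cells, a difference of -1.04 (SE 0.57) that did not pass the edgeR test of the difference (adjusted p = 0.517). The KRT17 effect of YAP5SA was -0.58 in A431 and 0.87 in HaCaT cells, a difference of 1.45 (SE 0.37) with an adjusted p of 0.0699 in edgeR and 0.00633 in DESeq2. Each control was 1 library. With siCTRL and empty vector as 2 controls the KRT15 effects of siYAP were both below 0 (-0.95 and -0.46), and those of YAP5SA on KRT17 stayed on opposite sides (-0.54 and 1.02).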

How the results depend on the processing

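Of the single-keratin fold changes under alternative settings, 1049 kept their direction and side of the threshold and 31 changed sign. Of those that kept their sign, 34 passed the threshold anew and 16 no longer passed it. Some of the 31 also crossed it with siCTRL and empty vector as 2 controls. With siYAP KRT14 then lost its call in HaCaT cells, and KRT6A gained a call there and over both lines. The choice of control changed most. With siCTRL and empty vector as 2 controls, keratins called with siYAP were 0 in A431 cells, 4 in HaCaT cells and 3 over both lines, and the log2 fold changes that turned were as follows. With siYAP they were KRT5 -0.41, KRT15 -0.95, KRT6A -0.33, KRT17 -0.02 and KRT19 -0.64 in A431 cells, KRT14 -0.13, KRT6A -3.19 and KRT16 -1.88 in HaCaT cells, and KRT5 -1.14, KRT6A -1.76 and KRT16 -0.93 over both, of which KRT6A was called lower in HaCaT cells and over both. With YAP5SA they were KRT5 0.10, KRT14 0.34, KRT15 0.40, KRT16 0.30 and KRT8 0.19 in A431 cells, KRT6A 0.84 in HaCaT cells and KRT5 0.05 over both. DESeq2 called 2 keratins for siYAP over both lines and 4 for the YAP5SA effect by line, beside 2468 and 928 of all genes. For the YAP5SA effect by line RLE factors, no count filter and more than 10 counts in every library each called 2 keratins. All genes called were then 108, 35 and 217. A431 cells fitted alone gave 2 calls with siYAP, beside 996 of all genes. Leaving out each treated library in turn gave 0 calls in A431 cells with siYAP, 1 to 2 over both lines with siYAP, 0 to 4 over both lines with YAP5SA and 0 to 4 for the YAP5SA effect by line. It also turned fold changes near 0, whose ranges in A431 siYAP were -0.11 to 0.01 for KRT6B, -0.04 to 0.05 for KRT17 and -0.05 to 0.01 for KRT8, and over both lines -0.21 to 0.03 for KRT19 with siYAP and, with YAP5SA, -0.11 to 0.09 for KRT6A and -0.07 to 0.18 for KRT16. KRT6A in HaCaT YAP5SA ranged from -0.36 to 0.05, and KRT5 of HaCaT against A431 in YAP5SA from -0.62 to 0.06. By line the siYAP effect ranged from -0.11 to 0.32 for KRT16 and -0.08 to 0.16 for KRT18, and the YAP5SA effect from -0.01 to 0.89 for KRT6B and -0.09 to 0.45 for KRT19. The replicate block left the count at 8 keratins called between the lines in siYAP and in YAP5SA libraries, also with YAP5SA libraries alone, and changed no keratin's call in these comparisons, the only ones it was run on. With TMM-scaled library sizes the keratin share was 0.595% in the A431 empty vector library, and 0.349%, 0.282% and 0.731% in HaCaT siCTRL, siYAP and empty vector libraries. By coding length 4 of 10 ranks held in HaCaT cells. The cause of each change was not tested. Single controls, and KRT6B near 0 counts in HaCaT siRNA libraries, limit what the depth can show.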
